A study of Mus musculus with 4 samples.

Results

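Expression of 10 genes of the NF-kB system was examined in LSK cells of aged mice: the 5 NF-kB subunit genes Nfkb1, Nfkb2, Rel, Rela and Relb, and 5 genes of inhibitors, Nfkbia, Nfkbie, Nfkbiz, Bcl3 and Tnfaip3. They were taken by symbol from a table of read counts for 24421 genes, and all 10 were found and passed the filter on low counts that left 13296 genes. LSK cells, named for their lack of lineage markers and their Sca1 and Kit proteins, are the marrow fraction that contains the blood stem cells and the first progenitors derived from them. They were sorted from mice aged 13 to 15 months of 2 genotypes, wild type (WT, 2 libraries) and p53R248W/+, heterozygous for an arginine-to-tryptophan substitution in the DNA-binding domain of p53 (2 libraries). Strain, sex and treatment, and whether each library came from 1 animal or from pooled animals, are not given in the sources used here, so the spread behind each p-value is that of the libraries and may be technical.

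NF-kB is a family of dimeric transcription factors. In resting cells the dimers are held in the cytoplasm by IkB proteins, and signals from cytokine and Toll-like receptors activate kinases that mark IkB for degradation, which lets the dimers enter the nucleus. The system then limits itself, because genes of several inhibitors are direct NF-kB targets. In hematopoietic stem cells NF-kB signalling is known for its part in the response to inflammation and infection. Transcript levels do not report the location or the activity of these proteins.

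The libraries held 12111126 to 14820759 counted reads, and the floor of 3 counts lay between 0.202 and 0.248 CPM (counts on a common scale, with library sizes adjusted by TMM), which covers counting error only. The sorted population carried its defining transcripts, with the receptor gene Kit at 911 to 1182 CPM and the Sca1 gene Ly6a at 40.2 to 82.9 CPM. Cdkn1a, a classical p53 target, stood at 74.3 and 39.9 CPM in WT, with 16.8 and 15.6 CPM in p53R248W/+. Its log2 fold change was -1.81 ± 0.44 (SE; unadjusted p = 0.00068, adjusted p = 0.824, edgeR quasi-likelihood test). Trp53 itself stood at 362 and 302 CPM in WT, with 245 and 332 CPM in p53R248W/+. Gene counts do not tell its alleles apart, so they do not check the genotype.

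The comparison of the genotypes asks which of these transcripts differ when the mutant p53 allele is present. No member passed the threshold of an adjusted p of 0.05 in the edgeR quasi-likelihood test, and neither did any other gene (0% of those tested). The adjusted p of the members ranged from 0.824 to 0.996. Of the 10 members, 9 had a negative log2 fold change (p53R248W/+ over WT), where 50.0% of all tested genes did, and the median over the members was -0.35. Bcl3 and Relb had an unadjusted p under 0.05, both lower, where 2.86% of all tested genes were lower at that level and 5.87% differed in either direction. In 4 members, Nfkb1, Relb, Bcl3 and Tnfaip3, both p53R248W/+ libraries lay below both WT libraries, which held for 16.6% of all tested genes.

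**Figure D1:**
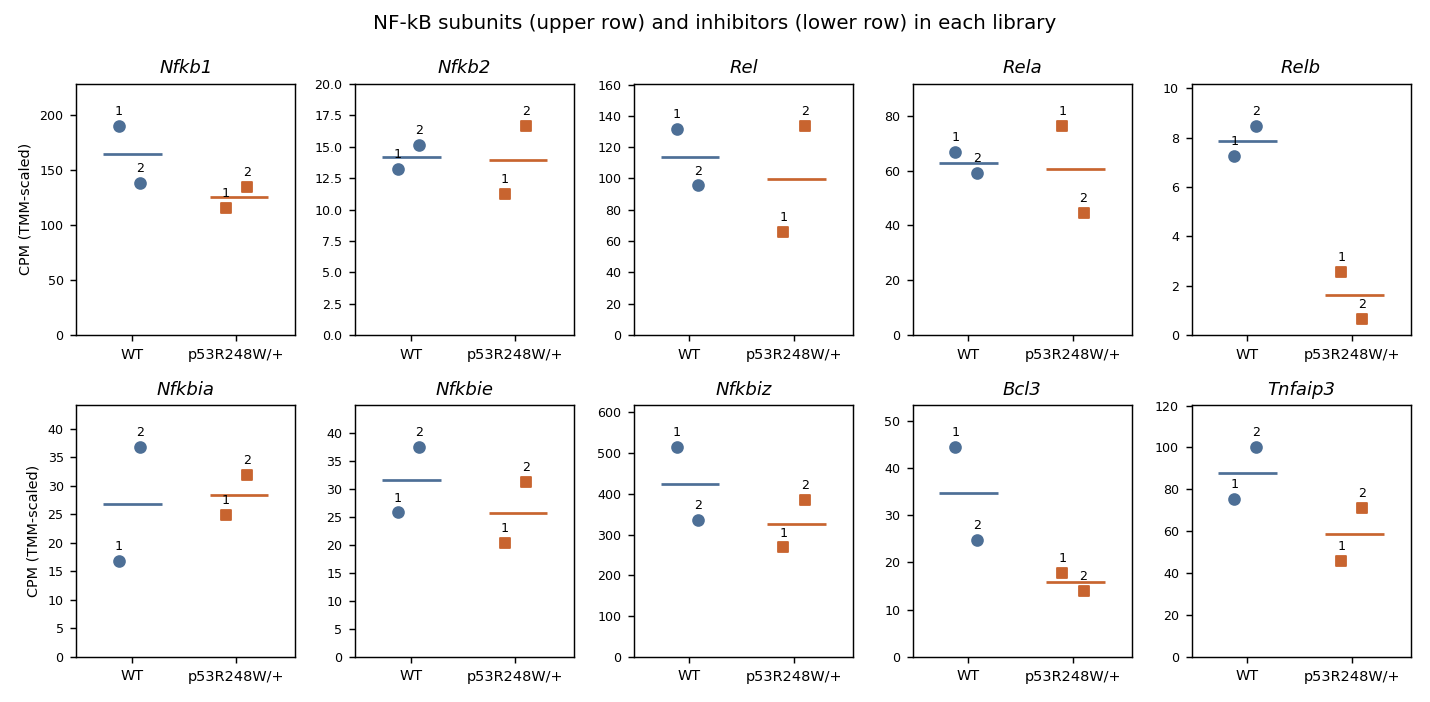
Level of each member in each library, in CPM on TMM-scaled library sizes, with a linear axis from 0; circles are WT and squares p53R248W/+, numbers give the replicate and lines the mean of 2 libraries. The groups do not overlap for Nfkb1, Relb, Bcl3 and Tnfaip3, and they overlap for the other 6 genes.

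Several of these genes are textbook targets of NF-kB itself, so the letters of their promoters are shown before the values. RefSeq promoter windows (build GRCm38.p6, 250 bases before to 50 after a transcript start) were matched for 7 of the 10 members, in 10 windows; Nfkb1, Relb and Nfkbiz had none. Both strands were searched for the 10-base kB consensus GGGRNNYYCC (R is A or G, Y is C or T, N any base), the sequence that NF-kB dimers bind. Overlapping matches were each counted. A match lay in 8 of these 10 windows, against 8.46% of all 32851 windows of the same length. By gene it lay in 6 of the 7, which have up to 3 windows each, so that count has no such share beside it. The windows of the members were 47 to 75% G and C, and the full set was not matched to them for base content. Windows 2 and 3 of Nfkb2 overlap, and the match of the third (chromosome 19, 46305705 to 46305714) is also in the other, so that site is counted in both. Rela was the gene with no match. The stretches below hold the matches nearest to the start of each of the 6 genes, 5′ to 3′ on the gene's strand, with matches in capitals. Each runs from base -150 to base -1 before the start, except that of Bcl3, which runs from -134 to 16 after it.
Nfkb2, chr19:46304587-46304736, plus strand: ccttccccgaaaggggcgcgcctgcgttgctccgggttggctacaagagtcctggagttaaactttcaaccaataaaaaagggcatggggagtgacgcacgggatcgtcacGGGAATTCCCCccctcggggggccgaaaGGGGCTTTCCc
Rel, chr11:23770970-23771119, minus strand: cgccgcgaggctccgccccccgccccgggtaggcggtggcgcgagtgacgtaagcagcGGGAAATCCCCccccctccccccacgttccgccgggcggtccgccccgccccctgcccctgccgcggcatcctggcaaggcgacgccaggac
Nfkbia, chr12:55492648-55492797, minus strand: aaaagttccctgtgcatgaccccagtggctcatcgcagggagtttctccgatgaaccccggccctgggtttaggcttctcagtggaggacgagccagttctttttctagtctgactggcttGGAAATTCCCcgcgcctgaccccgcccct
Nfkbie, chr17:45555550-45555699, plus strand: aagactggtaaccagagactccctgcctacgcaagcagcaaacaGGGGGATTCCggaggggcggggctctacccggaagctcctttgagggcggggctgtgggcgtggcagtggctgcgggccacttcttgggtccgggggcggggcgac
Bcl3, chr7:19822740-19822889, minus strand: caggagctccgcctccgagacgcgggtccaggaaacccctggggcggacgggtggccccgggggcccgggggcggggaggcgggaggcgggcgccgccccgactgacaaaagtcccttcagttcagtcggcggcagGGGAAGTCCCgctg
Tnfaip3, chr10:19015411-19015560, minus strand: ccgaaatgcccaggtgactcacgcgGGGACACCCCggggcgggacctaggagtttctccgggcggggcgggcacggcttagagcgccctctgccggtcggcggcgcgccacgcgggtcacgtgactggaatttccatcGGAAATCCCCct
The capitals of Nfkb2 and Rel each include a pair of overlapping matches, since the consensus there reads on both strands 1 base apart. The single match of Nfkbia began 29 bases before the start, that of Nfkbie 106 bases before it, and that of Bcl3 at base 3 of the transcript. The AP-1 consensus TGANTCA, the site of Fos and Jun dimers, lay in 3 of the 10 windows (1 of Nfkb2, that of Nfkbie and 1 of Tnfaip3) and in 7.81% of all windows. The 10-base consensus of a single p53 site arm lay in none of the 10 windows and in 8.36% of all windows. These are matches of letters, and binding was not measured.

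Among the subunits, Nfkb1, Rel and Rela form the dimers of the canonical pathway. Nfkb1 encodes p105, the precursor of p50 (mm10 chromosome 3, 135584655 to 135691547, minus strand). It stood at 190 and 138 CPM in WT, with 115 and 134 CPM in p53R248W/+. WT replicate 1 stood above the rest, and the nearest libraries of the genotypes, at 138 and 134 CPM, were close. Its log2 fold change was -0.40 ± 0.23 (SE), with a 95% interval from -0.88 to 0.085, and it was -0.15 without WT replicate 1 and -0.61 without WT replicate 2.

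Rel encodes c-Rel, a subunit with a transactivation domain that is prominent in blood cells (chromosome 11, 23741729 to 23770970). It stood at 132 and 95.5 CPM in WT, with 65.6 and 134 CPM in p53R248W/+. The p53R248W/+ libraries held both the lowest and the highest value, so the groups overlapped completely. The fitted log2 difference of -0.21 ± 0.30 (SE) became -0.80 without p53R248W/+ replicate 2 and 0.24 without p53R248W/+ replicate 1.

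Rela encodes p65, the main transactivating partner of p50 (chromosome 19, 5637490 to 5648130). It stood at 66.8 and 59.1 CPM in WT, with 76.4 and 44.7 CPM in p53R248W/+. Here too both ends of the range were p53R248W/+ libraries, but in the opposite order to Rel: replicate 1 was high for Rela and low for Rel. The ratio of Rel to Rela per exon length was 2.07 and 1.70 for WT, and 0.900 and 3.14 for p53R248W/+ replicates 1 and 2. The log2 fold change of Rela was -0.03 ± 0.32 (SE), with an interval from -0.71 to 0.64.

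Nfkb2 and Relb are the subunits of the non-canonical pathway, in which the p100 precursor encoded by Nfkb2 is processed to p52 and pairs with RelB. Nfkb2 (chromosome 19, 46304737 to 46312090) stood at 13.3 and 15.2 CPM in WT, with 11.3 and 16.7 CPM in p53R248W/+. The WT values lay inside the p53R248W/+ range. The log2 value was -0.05 ± 0.55 (SE), and the interval, from -1.21 to 1.12, allows a change of about 2-fold in either direction. Of its exon bases, 4 are shared with the neighbouring gene Psd.

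Relb (chromosome 7, 19606222 to 19629438) had the largest fold change of the 10 members and the lowest level. Its reads numbered 104 and 121 in WT, with 38 and 8 in p53R248W/+, or 7.25 and 8.49 against 2.56 and 0.661 CPM. Both WT values were above both p53R248W/+ values, and the p53R248W/+ libraries differed from each other by 3.88-fold. Its log2 fold change was -2.20 ± 0.95 (SE), with an interval from -4.19 to -0.21. The unadjusted p was 0.0321 and the adjusted p was 0.824 (edgeR quasi-likelihood test). Leaving out p53R248W/+ replicate 2 gave -1.62, and leaving out p53R248W/+ replicate 1 gave -3.56. Relb did not reach the mean of 5 CPM of the stricter filter.

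Of the inhibitors, Nfkbia and Nfkbie encode the classical cytoplasmic proteins IkB alpha and IkB epsilon. Nfkbia, whose rapid resynthesis ends NF-kB responses, lies on chromosome 12 (55489409 to 55492647) and stood at 16.9 and 36.8 CPM in WT, with 24.96 and 31.97 CPM in p53R248W/+. Both p53R248W/+ libraries lay between the WT libraries, which differed by 2.18-fold. It was the only member with a positive log2 fold change, 0.07 ± 0.46 (SE), and that value ran from -0.38 to 0.74 as single libraries were left out. It shares 15 exon bases with the microRNA gene Mir1198. Nfkbie (chromosome 17, 45555700 to 45563168) stood at 25.8 and 37.5 CPM in WT, with 20.4 and 31.2 CPM in p53R248W/+. In both genotypes replicate 2 was the higher, and its log2 fold change was -0.32 ± 0.43 (SE), with an interval from -1.23 to 0.59. That value came to -0.02 without WT replicate 2, to -0.02 without p53R248W/+ replicate 1, to -0.56 without WT replicate 1 and to -0.64 without p53R248W/+ replicate 2.

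Nfkbiz and Bcl3 encode atypical IkB proteins, IkB zeta and Bcl-3, which act in the nucleus on p50 and p52 dimers and can activate or repress their targets. Nfkbiz (chromosome 16, 55811377 to 55838641) was the most abundant member, with 514 and 336 CPM in WT and, in p53R248W/+, 269 and 385 CPM. WT replicate 1 was highest and the other WT library lay between the p53R248W/+ libraries. The genotype difference was -0.38 ± 0.21 (SE) on the log2 scale, and -0.04 without WT replicate 1.

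Bcl3 (chromosome 7, 19808462 to 19822755) stood at 44.4 and 24.8 CPM in WT, with 17.7 and 14.0 CPM in p53R248W/+. Both p53R248W/+ libraries were below both WT libraries, and WT replicate 1 stood far above the other 3. The fitted level was 2.16-fold lower in p53R248W/+, a log2 fold change of -1.11 ± 0.47 (SE) with an interval from -2.11 to -0.11. The unadjusted p was 0.0313 and the adjusted p was 0.824 (edgeR quasi-likelihood test). The log2 fold change was -0.63 without WT replicate 1 and between -1.47 and -0.97 without each other library, so it was negative in all 4 of these fits.

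Tnfaip3 encodes A20, a ubiquitin-editing enzyme that shuts off signalling above the IkB kinases (chromosome 10, 19000910 to 19015410). It stood at 75.3 and 100.1 CPM in WT, with 45.7 and 71.2 CPM in p53R248W/+. The groups did not overlap, although WT replicate 1 and p53R248W/+ replicate 2 were close. On the log2 scale the difference was -0.60 ± 0.30 (SE), with an interval from -1.24 to 0.04 and an unadjusted p of 0.0634. It came to -0.30 when p53R248W/+ replicate 1 was left out and to -0.94 when replicate 2 was.

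**Figure D2:**
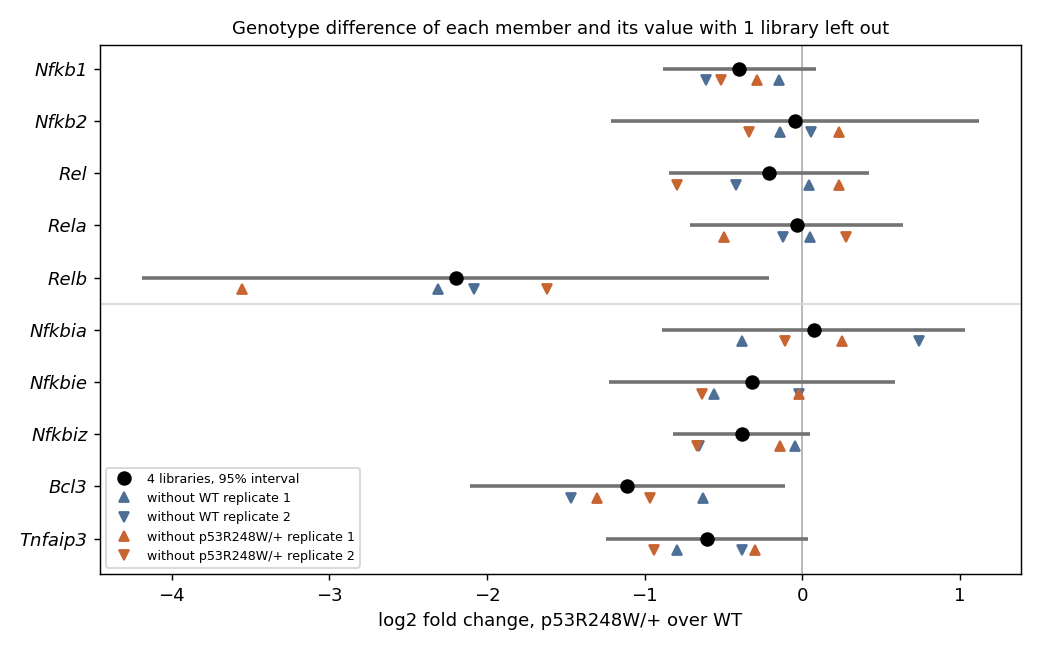
Log2 fold change of each member, p53R248W/+ over WT, from all 4 libraries (black points; bars are 95% intervals) and with 1 library left out (triangles, colour by the genotype of the library removed). The intervals of Relb and Bcl3 lie below 0, those of the other 8 genes include 0, and the triangles of Nfkb2, Rel, Rela and Nfkbia fall on both sides of 0.

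For most of these genes, as for most tested genes, libraries of 1 genotype differed by as much as the genotypes did. In 8 of the 10 members the larger of the 2 within-genotype differences exceeded the genotype difference on the log2 scale. This held for 79.1% of all tested genes, so it does not set the members apart. It did not hold for Relb and Bcl3. The lowest of the 4 libraries was p53R248W/+ replicate 1 for 6 members, p53R248W/+ replicate 2 for 3 and WT replicate 1 for 1. Over all tested genes these libraries were lowest for 26.9, 22.5 and 29.1%, in that order. WT replicate 2 was lowest for 0 members and for 21.4% of all tested genes. Summed over the 5 subunits, the WT libraries held 409 and 316 CPM and the p53R248W/+ libraries 271 and 330 CPM, and the groups overlapped. Summed over the 5 inhibitor genes the sums were 677 and 535 CPM for WT, with 377 and 534 CPM for p53R248W/+, of which Nfkbiz made up the larger part. Without Nfkbiz the WT sums were 162 and 199 CPM and the p53R248W/+ sums 109 and 148 CPM.

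Levels were compared between genes per exon length, as RPKM (CPM divided by the exon length in kilobases, computed here from the counts). Nfkbiz stood first with a mean of 97.0 RPKM and a range over the libraries of 69.2 to 133 RPKM, above the range of every other member. Rel (mean 41.3 RPKM), Nfkb1 (35.1), Rela (22.8), Nfkbia (17.5), Tnfaip3 (15.9), Bcl3 (13.8) and Nfkbie (11.8) followed, and the ranges of neighbours in that order overlapped. Nfkb2 (4.28 RPKM) and Relb (2.16 RPKM) were lowest; the range of Nfkb2 lay below that of Nfkbie and overlapped that of Relb. Of the summed subunit level per length, Rel made up 29.5 to 48.7%, Nfkb1 30.7 to 35.7%, Rela 15.5 to 32.7%, Nfkb2 3.12 to 4.77% and Relb 0.283 to 3.83%. The canonical subunits were thus the bulk of the subunit transcripts in every library. The median over all tested genes was 10.02 RPKM.

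**Figure D3:**
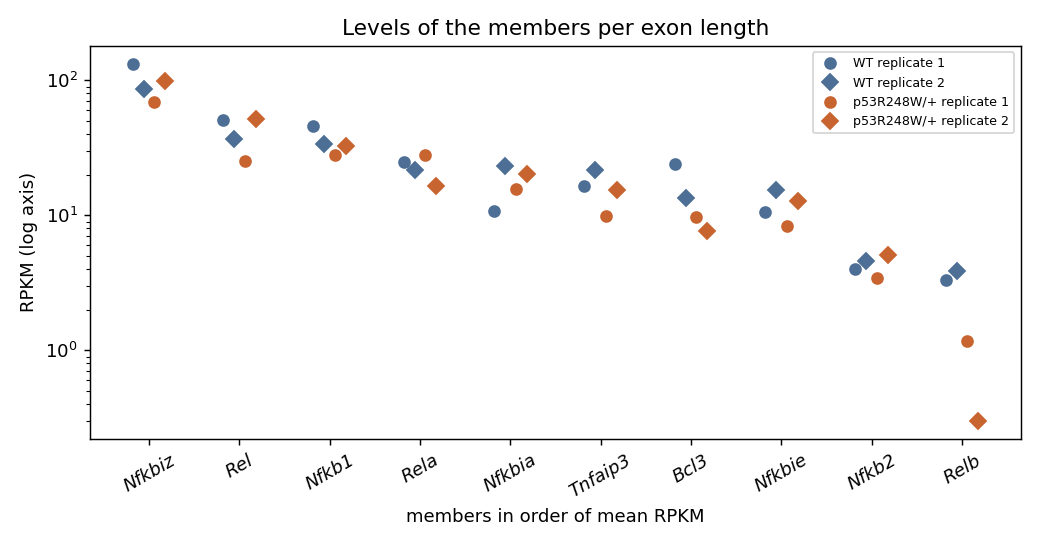
RPKM of each member in each of the 4 libraries on a log axis, ordered by the mean; blue is WT, orange p53R248W/+, circles replicate 1 and diamonds replicate 2. Nfkbiz lies above all others in each library, at 69.2 to 133 RPKM, and the p53R248W/+ values of Relb lie below its WT values.

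The rest of the pathway was followed in lists, none of which had a member past the threshold. Of the 2 other IkB genes, Nfkbid, another atypical nuclear IkB, stood at 53.8 and 47.3 CPM in WT, with 14.3 and 28.9 CPM in p53R248W/+. Its log2 fold change was -1.27 ± 0.41 (SE; unadjusted p = 0.00696, adjusted p = 0.824, edgeR quasi-likelihood test), between -1.83 and -0.81 as single libraries were left out. The classical Nfkbib was at 9.89 to 16.6 CPM, with a value of -0.17 ± 0.59 (SE). Of the 33 kinases and adaptors upstream of NF-kB, 16 had a negative and 17 a positive log2 fold change, with a median of 0.02, against a median of all tested genes of -8.8e-05. The IkB kinase genes Ikbkb and Ikbkg were at 58.2 to 62.9 and 75.3 to 90.7 CPM, with log2 fold changes of 0.02 ± 0.30 and 0.04 ± 0.26 (SE). Chuk, which encodes the IkB kinase alpha subunit, varied more, standing at 63.2 and 59.9 CPM for WT, compared with 33.5 and 74.3 CPM for p53R248W/+, with a log2 fold change of -0.23 ± 0.36 (SE). The adaptor Traf2 stood at 22.4 and 16.6 CPM in WT, compared with 6.41 and 10.4 CPM in p53R248W/+. The sensor Nod2 was counted at 1 and 26 reads in WT, compared with 121 and 62 reads in p53R248W/+. Both genes had an unadjusted p under 0.05; 3.01% of all tested genes were higher at that level.

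Among 20 other brakes on NF-kB, 12 had a negative and 8 a positive value, with a median of -0.10. Otulin, which removes linear ubiquitin chains, stood at 4.53 and 12.2 CPM in WT, with 41.1 and 19.8 CPM in p53R248W/+, or 1.90 ± 0.59 (SE) on the log2 scale, and 1.24 without p53R248W/+ replicate 1. The innate regulator Nlrx1 was at 3.63 and 4.14 CPM against 9.85 and 14.6 CPM. Socs1, an inhibitor of cytokine signalling, was counted at 27 and 49 reads in WT and at 0 and 2 reads in p53R248W/+, at or under the floor, so no fold is given. The deubiquitinase Cyld was at 145 to 163 CPM in all libraries.

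Receptors that signal to NF-kB had 17 tested genes of 22, with 13 positive values, against 50.0% of all tested genes, and a median of 0.52, which was 0.23 and 0.21 with p53R248W/+ replicates 1 and 2 left out, respectively, and 0.13 with no filter. A gene can pass the filter through the higher genotype alone, so these counts are a description. The members with an unadjusted p under 0.05 were the interleukin-1 receptor family genes Il1rl1, Il18r1 and Il1r1, 3 of the 17, against 3.01% of all tested genes that were higher at that level. Il1rl1, the interleukin-33 receptor, had 10 and 19 reads in WT, with 231 and 142 in p53R248W/+. The interleukin-18 receptor gene Il18r1 stood at 9.42 and 18.2 CPM in WT, compared with 20.1 and 68.2 CPM in p53R248W/+, a log2 fold change of 1.63 that was 0.54 without p53R248W/+ replicate 2. Il1r1, the interleukin-1 receptor, was at 86.3 and 67.1 CPM against 96.5 and 161.6 CPM, or 0.74 ± 0.28 (SE) on the log2 scale, and 0.33 without p53R248W/+ replicate 2. The tumour necrosis factor receptor genes Tnfrsf1a and Tnfrsf1b had log2 fold changes of 0.11 ± 0.37 and -0.04 ± 0.24 (SE). Of 15 ligand genes only 6 were tested. Il1b was at 0.0674 to 0.837 CPM, Il33 had no count in any library, and Tnf stood at 5.65 and 1.96 CPM in WT, compared with 0.809 and 7.52 CPM in p53R248W/+. Tnfsf14 was the ligand with an unadjusted p under 0.05, at 20.9 and 13.4 CPM against 4.32 and 7.10 CPM.

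The genes of a list of known NF-kB targets did not share a direction. This list leaves out the 10 members, of which 9 had a negative and 1 a positive value. It shares the tested genes Birc3 and Traf1 with the upstream list, Tnip1 and Zc3h12a with the brakes, and Tnf and Ltb with the ligands. Of 32 tested targets of 46, 19 had a negative and 13 a positive log2 fold change, and the median was -0.06. The antioxidant gene Sod2 stood at 126 and 86.5 CPM in WT, compared with 94.7 and 112 CPM in p53R248W/+, and the adhesion gene Icam1 at 62.8 and 40.7 CPM against 63.2 and 45.4 CPM. For both the groups overlapped. An unadjusted p under 0.05 was found for 2 of the 32, against 5.87% of all tested genes, and in opposite directions: the chemokine Cxcl2 was at 8.93 and 1.96 CPM against 1.08 and 0.826 CPM, and the chemokine receptor Ccr7 was counted at 1 and 20 reads against 168 and 65 reads.

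**Figure D4:**
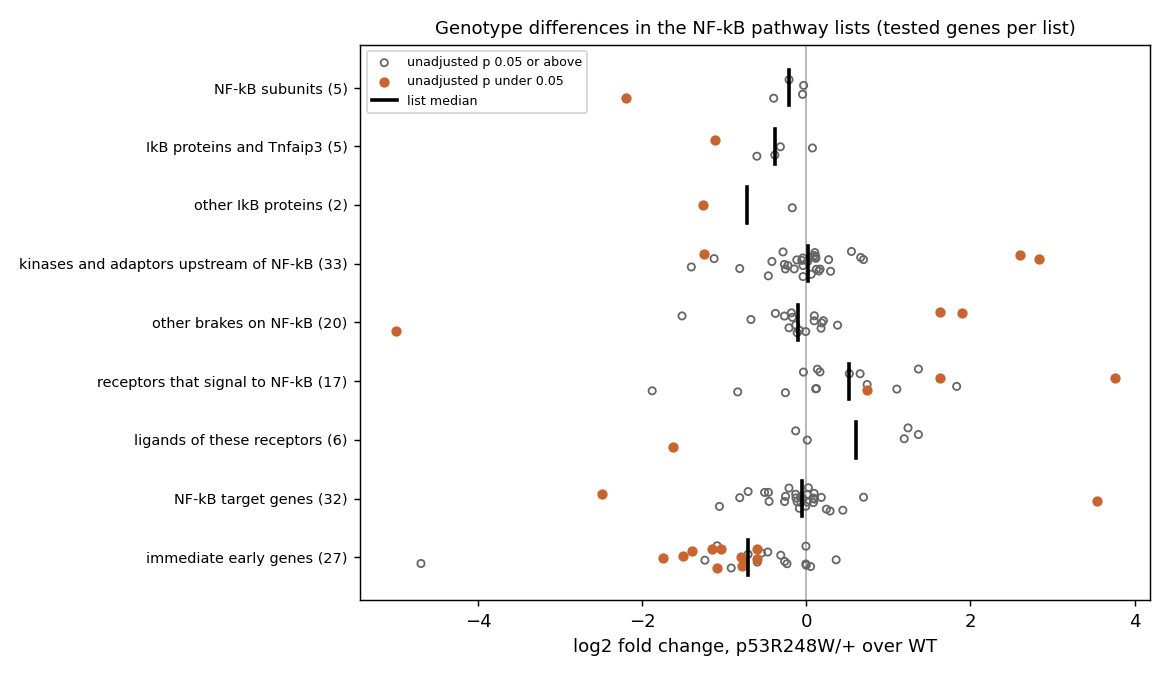
Log2 fold change (p53R248W/+ over WT) of every tested gene of each list, with the number tested in parentheses; filled points have an unadjusted p under 0.05, bars are list medians, and vertical scatter within a list has no meaning. The medians are -0.21 for the subunits, -0.38 for the 5 inhibitor genes, -0.06 for the targets and -0.71 for the immediate early genes.

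Transcripts of other lists also varied across the libraries. Immediate early genes are a class induced rapidly by stimuli and by tissue handling. The list of them used here leaves out the 10 members and shares Ier3 and Gadd45b with the target list. These genes had a negative value in 25 of 27 tested genes, against 50.0% of all tested genes, with a median of -0.71. In the edgeR quasi-likelihood test 11 were lower and 0 higher at an unadjusted p under 0.05, against 2.86 and 3.01% of all tested genes. Both p53R248W/+ libraries lay below both WT libraries for 18 and above them for 1, against 16.6 and 16.9% of all tested genes. Summed, the 27 genes gave 10773 and 6751 CPM for WT, with 5516 and 6073 CPM for p53R248W/+, so WT replicate 1 was highest. That library was also highest for 3 of the members (30%), Nfkb1, Nfkbiz and Bcl3, against 28.3% of all tested genes. This share does not set the members apart. The highest library was WT replicate 2 for 4 members, p53R248W/+ replicate 1 for 1 and p53R248W/+ replicate 2 for 2. The immediate early genes with the smallest unadjusted p were Klf6, Dusp1, Jun and Atf3, at -0.78, -0.80, -0.60 and -1.74 on the log2 scale. All 4 are transcription factor genes but the phosphatase gene Dusp1, which came to -0.37 without WT replicate 1. The median of the class was -0.41 without that library. The part of these genes in the values of Bcl3 and Nfkbiz was not tested. Markers of other cell types are given as sums over each list, and a gene is counted as higher or lower here by the sign of its fitted value. Which cells held these transcripts was not tested. Monocyte and macrophage genes summed to 446 and 303 CPM in WT and to 401 and 328 CPM in p53R248W/+, with 3 of 8 tested genes higher, and C1qa was at or under 3 counts in each library. Neutrophil genes summed to 15.1 and 36.6 CPM against 39.6 and 36.4 CPM, with 7 of 8 higher. B cell and plasma cell genes summed to 71.2 and 56.3 CPM against 128 and 70.2 CPM, with 6 of 6 tested genes higher, and Pax5 was at or under 3 counts throughout. Dendritic cell genes summed to 104 and 212 CPM against 219 and 181 CPM, with 6 of 7 higher, and Siglech and Cd209a were at or under 3 counts. T and NK cell genes summed to 73.9 and 87.5 CPM against 87.9 and 71.8 CPM, with 3 of 5 higher, and Cd3g and Gzma were at or under 3 counts. Mast cell and basophil genes summed to 45.2 and 29.2 CPM against 35.3 and 67.2 CPM, with 6 of 8 higher. Endothelial and stromal genes summed to 227 and 182 CPM against 335 and 243 CPM, with 6 of 6 tested genes higher and a median of 0.56. The largest values of that list were those of Pecam1, at 50.7 to 105 CPM, and Tek, at 61.5 to 103 CPM. Cdh5 had 0 and 0 reads in WT, with 27 and 0 in p53R248W/+, and Lepr had 0 and 0 against 84 and 1. Col1a1 and Cxcl12 were at or under 3 counts. Erythroid genes summed to 29.3 and 27.3 CPM against 24.8 and 20.2 CPM. Of that list Car1, at 6.86 to 22.2 CPM, Epor, at 1.75 to 10.3 CPM, and Ermap, at 0.405 to 4.71 CPM, were tested and all 3 were lower, while the 4 globin genes had no count in any library. In sorted bulk samples, fewer cells of a type and less RNA per cell cannot be told apart.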

How the data were processed

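Messenger RNA of sorted LSK cells was measured in 2 WT and 2 p53R248W/+ libraries, grouped and numbered by their labels. The authors deposited raw read counts per gene symbol with exon coordinates. Per the submitters' processing notes, reads were handled with STAR 2.7.10a and build mm10, and the notes also name featureCounts, Subread 2.0.3, edgeR 3.40.2 and FastQC 0.11.5. The strand setting and the treatment of multi-mapping reads are not given in the sources used here, so antisense and overlapping genes are uncertain. The exon length deposited beside the counts was used for RPKM.

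Genes were filtered with filterByExpr (minimum count 10, minimum total 15), scaled by TMM and tested with the edgeR 4.0.16 quasi-likelihood test in R 4.3.3 (estimateDisp, then glmQLFit with robust=TRUE and legacy=FALSE), with genotype as the only term and Benjamini-Hochberg adjustment over all 13296 genes. The standard error (SE) is the log2 fold change divided by the root of the F statistic. The code was tested on simulated data. The alternatives were 2 other scalings, DESeq2 1.42.0, limma-voom (limma 3.58.1), a block for the replicate number, leaving out single libraries (on the same genes), no filter, and a stricter one (a mean of 5 CPM, with 1 CPM or more in 2 libraries). The legacy quasi-likelihood method was added after seeing the data.

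The members and lists were chosen with earlier results of these data known. All 10 members are named. From each other list up to 4 tested genes with the smallest unadjusted p under 0.05 are named, or the most abundant gene where there is none; other genes were named after their values were seen. One gene of the upstream list that this rule names is not reported here. Trp53 and Cdkn1a are named as context. Overlaps of exons were computed from the deposited coordinates, and promoter sequences are from RefSeq.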

Additional observations from a re-analysis of the deposited data

How the results depend on the processing

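All 119 refits of single members (10 genes, 11 planned settings and 1 added, less Relb under the stricter filter) left each member short of the threshold. The direction was kept in 111 of them. The 8 that changed direction each left out 1 library: over those fits Nfkb2 ran from -0.34 to 0.23, Rel from -0.80 to 0.24, Rela from -0.49 to 0.28 and Nfkbia from -0.38 to 0.74 on the log2 scale. The count of genes past the threshold, 0 with the edgeR quasi-likelihood test, where 780 genes had an unadjusted p under 0.05, was 6 with DESeq2 (3 higher, 3 lower), 0 with limma-voom, and 0 to 4 as single libraries were left out, with the 4 called without p53R248W/+ replicate 2. The median of the members ran from -0.65 (without p53R248W/+ replicate 2) to -0.21 (without p53R248W/+ replicate 1). The cause was not tested. Relb had an unadjusted p under 0.05 in the edgeR test and not with the legacy quasi-likelihood method or limma-voom, while Bcl3 had one in each of these 3. As single libraries were left out, the unadjusted p ran from 0.0377 to 0.157 for Relb, under 0.05 in 2 of 4 fits, and from 0.0152 to 0.281 for Bcl3, under 0.05 in 1 of 4. The labels give both genotypes the numbers 1 and 2, but nothing ties the libraries of a number together, and the within-genotype differences of the genotypes correlated at -0.0074 across genes. With the replicate block the median of the members was -0.34, 0 genes passed, and 9 members were negative. With 2 libraries per genotype, the intervals of Nfkb2 and Nfkbia span about 1 log2 unit on either side of 0.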

Other observations

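The genes whose profile over the 4 libraries lay nearest to that of Nfkbia were Sec23b, Osgin2 and Abcf3, at root mean square distances of 0.018, 0.053 and 0.061 in centred log2 CPM, among 7372 genes with a mean of at least 20 CPM. Sec23b, which encodes a coat protein of vesicles leaving the endoplasmic reticulum, stood at 34.2 and 75.1 CPM in WT, with 52.2 and 66.4 CPM in p53R248W/+. The genes nearest to Tnfaip3 were Ppp1r26, Sik2 and Fancm, at distances of 0.032, 0.037 and 0.048. Sik2, a salt-inducible kinase, stood at 57.3 and 76.1 CPM in WT, with 37.0 and 56.1 CPM in p53R248W/+. The median distance over the candidates was 0.49 for Nfkbia and 0.46 for Tnfaip3, and with 4 libraries such nearness is a description of these libraries alone.

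The ratio of Nfkbiz to Nfkbia per exon length was 12.4 in WT replicate 1 and 3.73 in WT replicate 2, and it was 4.38 and 4.91 in the p53R248W/+ libraries. The 2 WT libraries thus lay on both sides of the p53R248W/+ pair. The ratio of Bcl3 to Nfkb1 was 0.524 and 0.404 in WT and 0.346 and 0.234 in p53R248W/+.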
